A study of Mus musculus with 8 samples.

Results

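The transcription factors that direct the choice between dendritic cell lineages were measured in splenic cDC1, the type 1 conventional dendritic cells that present antigen to CD8 T cells. The set comprised 10 genes chosen by name: the cDC1 factors Irf8, Batf3, Id2, Nfil3 and Bcl6, the plasmacytoid factors Tcf4, Spib and Zeb2, and Irf4 and Zbtb46. The array annotation named 1 probe set for each of 9 of them, out of 22206 probe sets tested. No annotated probe set carried Zeb2, so its expression is not analysed here. Both fractions came from the spleens of naive wild-type C57BL/6 mice: cDC1 with high TMRM/MG staining on 4 arrays, and cDC1 with low TMRM/MG staining on the other 4. TMRM is a dye that accumulates in mitochondria with their membrane potential, and the labels do not spell out MG. Neither the age of the mice nor the meaning of a replicate number is stated, and nothing says that arrays came from separate animals. The p-values therefore reflect array-to-array spread, which may be technical. Values are log2 signals after RMA normalization, and a difference is the mean of TMRM/MG-high minus that of TMRM/MG-low with its standard error (SE).

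Conventional and plasmacytoid dendritic cells arise from shared progenitors, and a small circuit of factors separates them. TCF4 is an E protein, a helix-loop-helix factor that binds E-box DNA and maintains the plasmacytoid program. ID2 pairs with E proteins and keeps them off DNA, which favours cDC1. NFIL3 represses Zeb2, whose product represses Id2, so the plasmacytoid and cDC1 programs hold each other in check. IRF8 and BATF3 act together at composite sites to sustain cDC1 identity.

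The promoter windows of 4 factors are shown to compare their counts of the E-box CANNTG, the element that E proteins bind and ID2 blocks. Nfil3 and Id2 are cDC1 factors whose fractions did not overlap, Irf8 is the cDC1 factor with a negative difference, and the Zbtb46 window held the most E-boxes. Each sequence runs 5′ to 3′ on the gene's strand from 250 bases before to 50 bases after the most upstream RefSeq start (GRCm38.p6), with E-boxes in capitals. The positions are chr13:52980990-52981289 for Nfil3 (minus strand), chr12:25096043-25096342 for Id2 (minus), chr8:120736108-120736407 for Irf8 (plus) and chr2:181424339-181424638 for Zbtb46 (minus).
Nfil3: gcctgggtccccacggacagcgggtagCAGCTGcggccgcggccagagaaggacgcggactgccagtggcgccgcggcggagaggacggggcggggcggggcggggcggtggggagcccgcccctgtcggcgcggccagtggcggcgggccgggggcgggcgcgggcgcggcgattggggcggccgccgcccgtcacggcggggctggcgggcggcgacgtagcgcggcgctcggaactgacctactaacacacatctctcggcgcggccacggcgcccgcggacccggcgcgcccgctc
Id2: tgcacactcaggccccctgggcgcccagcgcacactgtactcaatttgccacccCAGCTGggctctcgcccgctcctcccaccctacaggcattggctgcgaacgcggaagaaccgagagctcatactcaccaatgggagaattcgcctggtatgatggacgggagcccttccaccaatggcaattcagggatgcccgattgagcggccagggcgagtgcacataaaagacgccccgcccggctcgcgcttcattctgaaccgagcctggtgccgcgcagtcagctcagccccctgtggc
Irf8: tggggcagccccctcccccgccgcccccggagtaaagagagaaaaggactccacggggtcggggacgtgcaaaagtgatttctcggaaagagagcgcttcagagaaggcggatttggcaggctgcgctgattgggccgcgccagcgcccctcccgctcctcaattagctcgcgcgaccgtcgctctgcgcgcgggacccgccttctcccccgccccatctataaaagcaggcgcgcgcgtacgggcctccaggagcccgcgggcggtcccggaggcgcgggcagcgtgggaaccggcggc
Zbtb46: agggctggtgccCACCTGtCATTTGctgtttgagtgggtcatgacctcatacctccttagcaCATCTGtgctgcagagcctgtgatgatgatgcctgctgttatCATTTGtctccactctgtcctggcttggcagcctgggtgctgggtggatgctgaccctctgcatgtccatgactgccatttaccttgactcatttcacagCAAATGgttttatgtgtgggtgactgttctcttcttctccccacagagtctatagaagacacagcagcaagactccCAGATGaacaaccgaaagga

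The Nfil3 and Id2 windows each held 1 E-box, with the same letters CAGCTG, at positions -223 and -196 from the start. The Irf8 window held 0 and the Zbtb46 window 6, of which 1 was CACCTG, the form that ZEB factors bind. An E-box was found in 7 of the 9 members with a RefSeq promoter and in 72.2% of 27018 gene promoters of the same length. These 9 are not the 9 measured factors: Zeb2 was searched, and Tcf4 had no promoter entry. The form CACCTG, searched on both strands and contained in CANNTG, occurred in 1 of the 9 and in 20% of all promoters. The AP-1 element TGANTCA, which BATF3 binds with a JUN partner, occurred in Zbtb46 alone among the 9 and in 7.92% of promoters. The interferon regulatory factor element, a spaced pair of GAAA tetramers (3.49% of promoters), and the NFIL3 element TTANGTAA (2.34%) were found in 0 of the 9. These letters describe the window only, and whether a window is the promoter used in these cells was not tested. The bases just before the Zbtb46 start end as an intron does, so that window may lie outside its promoter.

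Of the 9 measured factors, Tcf4 and Nfil3 rose in TMRM/MG-high cells and 0 fell (limma, adjusted over all probe sets, threshold 0.05). Over all probe sets 8.25% passed, 5.28% higher and 2.96% lower. Tcf4 is the defining plasmacytoid factor and Nfil3 belongs to the cDC1 circuit, so each group held 1 of the rises. Of the 9 differences 7 were positive, with a median of 0.19, against 0.009 over all probe sets and 0.027 with dim ones left out. The fractions did not overlap in 3 members, Tcf4, Nfil3 and Id2, all higher in TMRM/MG-high. Of all probe sets 16.1% did not overlap, 9.7% higher and 6.37% lower. In sorted bulk cells, more cells of a type and more RNA per cell cannot be told apart.

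**Figure D1:**
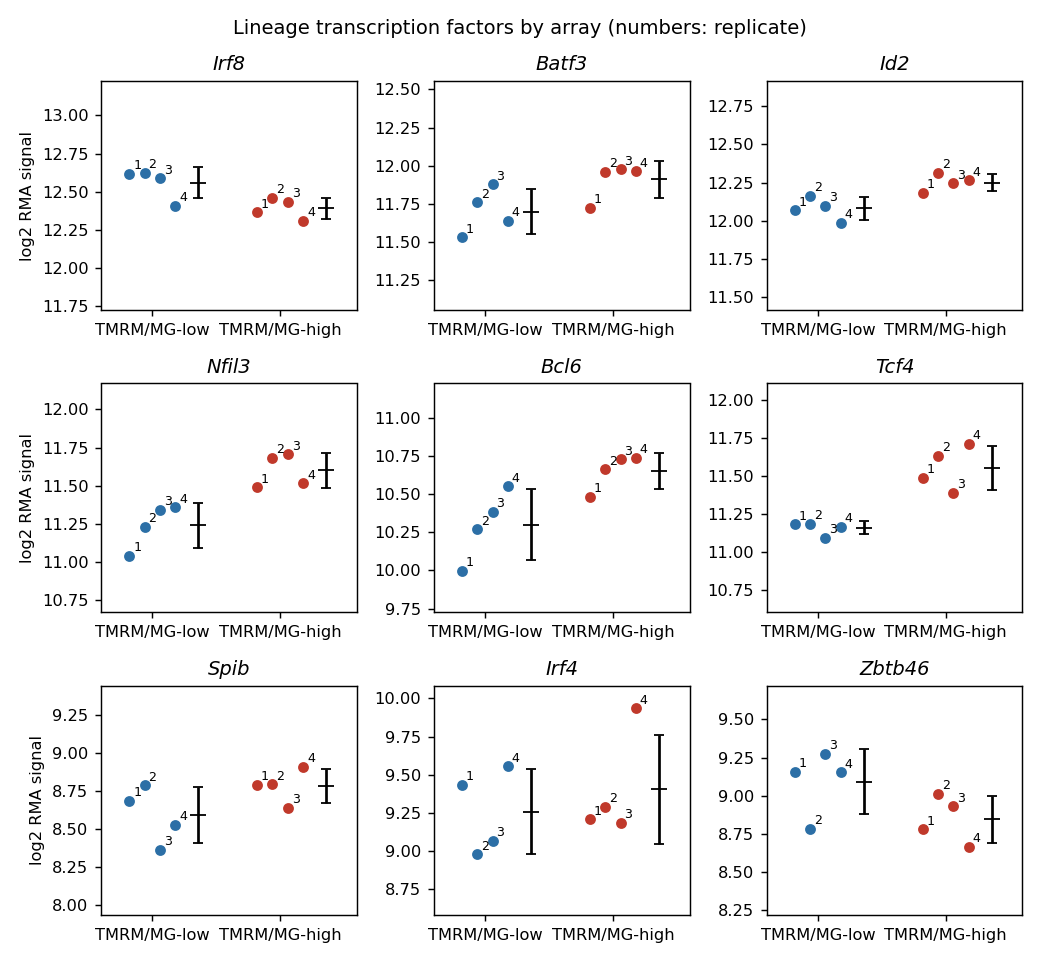
Log2 RMA signal (vertical axis, each panel spanning the same range) of the 9 measured factors on the 4 TMRM/MG-low (blue) and 4 TMRM/MG-high (red) arrays, numbered by replicate. Bars give the mean and SD. Tcf4, Nfil3 and Id2 are the panels in which the fractions do not overlap.

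Tcf4 stood at 11.18, 11.19, 11.09 and 11.17 in TMRM/MG-low replicates 1 to 4 and at 11.49, 11.63, 11.39 and 11.71 in the TMRM/MG-high replicates. The low arrays lay close together (mean 11.16 ± 0.044, SD, n = 4), and every high array lay above them, with replicate 3 nearest (mean 11.55 ± 0.14, SD, n = 4). The difference was 0.40 (SE 0.089, 1.32-fold, limma adjusted p = 0.0234). Leaving out 1 array gave differences of 0.35 to 0.45. The call was lost in 5 of these 8 omissions, without low replicate 1 (0.41, adjusted p = 0.0528), low replicate 2 (0.41, 0.0511), low replicate 4 (0.40, 0.0521), high replicate 2 (0.37, 0.0764) or high replicate 4 (0.35, 0.0633).

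Spib, an ETS-family factor that supports plasmacytoid and B cell programs, was dimmer. It measured 8.69, 8.79, 8.36 and 8.53 in the low and 8.79, 8.79, 8.64 and 8.91 in the high replicates. High replicate 3 lay below low replicates 1 and 2, so the fractions overlapped. The difference of 0.19 (95% interval -0.04 to 0.42) did not pass the test (limma adjusted p = 0.276).

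The cDC1 factors did not move as a block. Nfil3 measured 11.04, 11.23, 11.34 and 11.36 in the low and 11.49, 11.68, 11.71 and 11.52 in the high replicates. All high arrays lay above all low arrays, by 0.35 on average (SE 0.096, 1.28-fold, limma adjusted p = 0.0444). The call was near the threshold and was lost in 6 of the 8 omissions of 1 array: low replicates 1 (adjusted p = 0.111), 2 (0.0949) and 4 (0.0608) and high replicates 2 (0.127), 3 (0.128) and 4 (0.0714), with differences of 0.29 to 0.39. It was also lost after quantile normalization of the tested probe sets (0.28, limma adjusted p = 0.0761) and after centring on array medians (0.34, 0.0527), while Tcf4 kept its call under both.

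Bcl6, a zinc finger repressor needed by cDC1, had a similar difference and a wider spread. Its low replicates read 9.996, 10.27, 10.39 and 10.55, and its high replicates read 10.48, 10.66, 10.73 and 10.74. Low replicate 4 exceeded high replicate 1. The difference of 0.35 (SE 0.12) did not pass (limma adjusted p = 0.0847).

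Id2 measured 12.07, 12.16, 12.10 and 11.99 in the low and 12.18, 12.32, 12.25 and 12.26 in the high replicates. The fractions separated by a narrow gap, between low replicate 2 and high replicate 1. The difference of 0.17 (SE 0.078) did not pass (limma adjusted p = 0.191). The 95% interval, 0.0023 to 0.34, lay just above 0 but is not adjusted for the number of probe sets. Of 22206 probe sets, 5653 had an unadjusted limma p under 0.05.

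Batf3, an AP-1 factor on which cDC1 depend, read 11.53, 11.76, 11.88 and 11.64 in the low replicates. The high replicates read 11.73, 11.96, 11.98 and 11.96. Only high replicate 1 fell inside the low range. The difference was 0.20 (SE 0.098, limma adjusted p = 0.22).

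Irf8 was the one cDC1 factor with a negative difference. Its low replicates read 12.62, 12.62, 12.59 and 12.41 and its high replicates 12.37, 12.46, 12.43 and 12.31. Low replicate 4 lay below high replicates 2 and 3. The difference of -0.17 (SE 0.083, 95% interval -0.35 to 0.016) did not pass (limma adjusted p = 0.239).

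Irf4, which serves cDC2 where IRF8 serves cDC1, varied most within a fraction. It measured 9.43, 8.98, 9.07 and 9.56 in the low and 9.21, 9.29, 9.19 and 9.93 in the high replicates. High replicate 4 stood well above the other arrays of its fraction. The difference was 0.15 (SE 0.18, limma adjusted p = 0.657), and without high replicate 4 it was -0.03 (adjusted p = 0.927).

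Zbtb46, a zinc finger factor of conventional dendritic cells that plasmacytoid cells lack, measured 9.16, 8.78, 9.27 and 9.15 in the low replicates. In the high replicates it read 8.78, 9.01, 8.93 and 8.67. Low replicate 2 lay among the high arrays. The difference of -0.24 (SE 0.12) did not pass (limma adjusted p = 0.22).

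Whether a plasmacytoid factor changed by another amount than a cDC1 factor was asked for the 10 measurable pairs, on the within-array difference of their log2 signals. Tcf4 relative to Irf8 differed by 0.56 (95% interval 0.3 to 0.83), and the fractions did not overlap. Spib relative to Irf8 differed by 0.36 (0.06 to 0.65), also without overlap. Both had the smallest p that a two-sided exact permutation test of 4 against 4 arrays can give, 0.0286. It became 0.143 after adjustment over the 10 pairs, so no pair passed. Under this adjustment a pair at that floor can pass only if most of the 10 pairs reach it. The lack of a pass therefore says little about a single pair. Tcf4 relative to its antagonist Id2 differed by 0.22 (0.04 to 0.41, exact permutation p = 0.0571, adjusted 0.19). Relative to Nfil3 and Bcl6, Tcf4 differed by 0.04 and 0.05, with intervals of -0.29 to 0.38 and -0.32 to 0.41. The remaining pairs, Tcf4 with Batf3 (0.19) and Spib with Batf3, Id2, Nfil3 and Bcl6 (-0.16 to 0.02), had intervals that include 0.

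**Figure D2:**
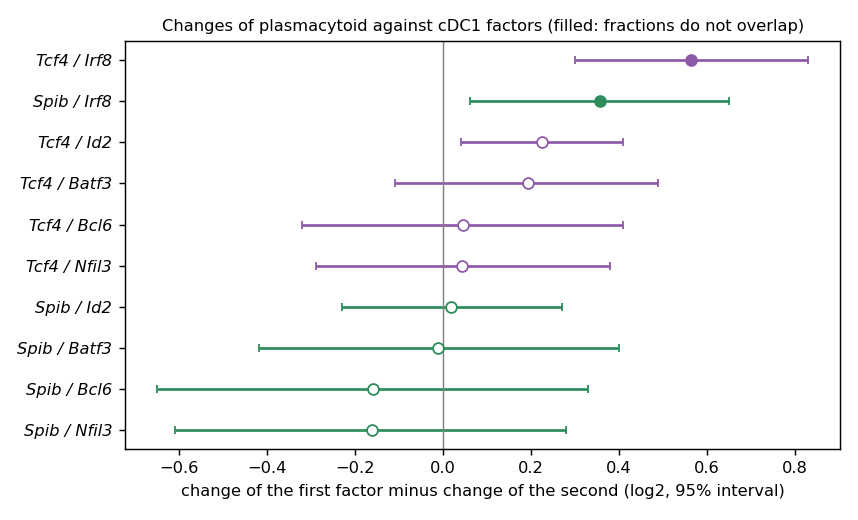
Change of a plasmacytoid factor minus change of a cDC1 factor between the fractions (horizontal axis, log2, points with 95% intervals from the pooled spread of 4 arrays a fraction), for Tcf4 (purple) and Spib (green). Filled points mark the pairs with Irf8, in which the fractions do not overlap.

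Of 46 other factors of the pathway measured, from 48 listed, 2 rose and 6 fell, with a median difference of -0.01. Over all probe sets 5.28% were called higher and 2.96% lower, and the counts of each list below are read beside these shares. In lists this small, 1 or 2 calls can arise at such shares. Without 1 array the counts ran from 0 rises (high replicate 2) to 3 (low replicate 3) and from 2 falls (high replicate 3) to 6 (low replicate 3). Among the E and Id protein partners, Cbfa2t3, a corepressor that binds E proteins, fell and the other 8 of 9 did not pass. Cbfa2t3 measured 9.98 to 10.22 in the low and 9.52 to 9.82 in the high arrays, without overlap (-0.39, SE 0.096, limma adjusted p = 0.0306), and its call was kept in 2 of the 8 omissions. The E proteins Tcf3 (-0.22) and Tcf12 (0.16) and the inhibitors Id1 (0.26), Id3 (0.0027) and Id4 (0.16) did not pass.

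Of the 9 AP-1 genes, whose products pair with BATF3 or resemble it, 2 fell and 0 rose. Jund measured 12.0 to 12.38 in the low and 11.42 to 11.56 in the high arrays, without overlap (-0.68, SE 0.099, limma adjusted p = 0.00465). Jun measured 12.51 to 12.7 in the low and 12.09 to 12.41 in the high arrays, also without overlap (-0.40, SE 0.09, adjusted p = 0.0236). The Jund call was kept in all 8 omissions of 1 array and that of Jun in 3. Junb (-0.05), Fos (-0.0055), Fosb (0.0049) and Batf (-0.14) did not pass.

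Among 6 other interferon regulatory factors, Irf2, a repressor of interferon responses, fell. It measured 10.35 to 10.53 in the low and 9.63 to 9.88 in the high arrays (-0.69, SE 0.087, limma adjusted p = 0.00237), and the call was kept in all 8 omissions. The plasmacytoid interferon factor Irf7 differed by -0.0087 and Irf1 by -0.19, neither passing.

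Of 22 other dendritic and myeloid factors, 2 rose and 2 fell. Zbtb10, a zinc finger factor, rose (0.58, SE 0.11, limma adjusted p = 0.0149), as did Rbpj, the DNA-binding partner of Notch (0.32, SE 0.075, adjusted p = 0.0279). Rbpj lost its call after quantile normalization (0.24, adjusted p = 0.0575). Notch2, a receptor that shapes splenic dendritic cells, fell (-0.33, SE 0.079, adjusted p = 0.0287), and so did Tbx21, the T-box factor of NK and T helper cells (-0.88, SE 0.18, adjusted p = 0.0157). Leaving out 1 array kept the call of Zbtb10 and Tbx21 in 7 of 8 omissions and that of Rbpj and Notch2 in 2. Tbx21 differed by -0.07 with the spike-in level, described below, as a covariate. Spi1 (-0.07), the gene of PU.1, and Mycl (0.04) did not pass.

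**Figure D3:**
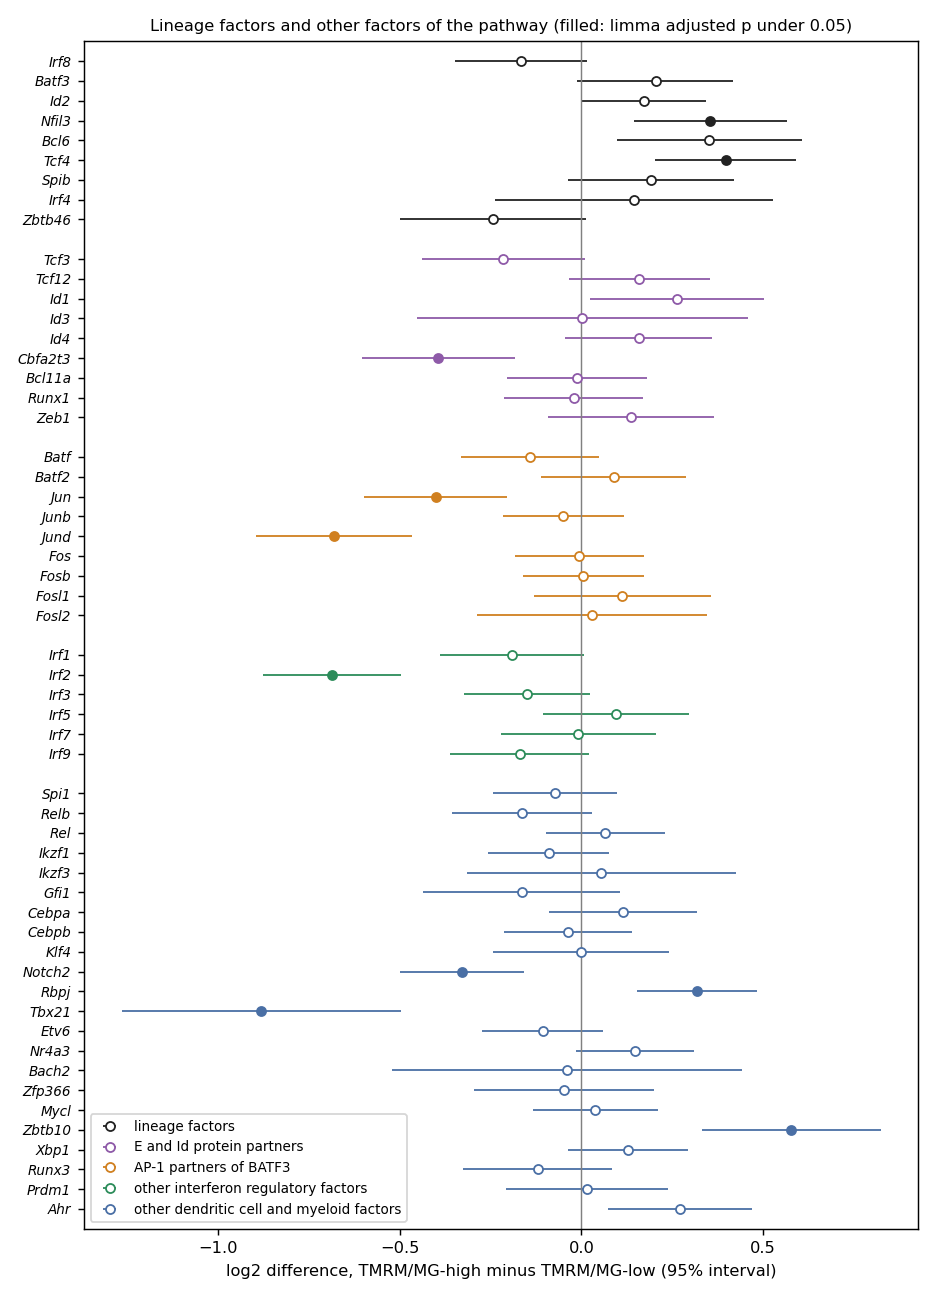
Log2 difference, TMRM/MG-high minus TMRM/MG-low, with its 95% interval (horizontal axis) for the 9 lineage factors and 46 other factors of the pathway, coloured by list. Filled points passed limma's test: Nfil3, Tcf4, Rbpj and Zbtb10 to the right of 0, and Cbfa2t3, Jun, Jund, Irf2, Notch2 and Tbx21 to the left.

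Marker lists of the cell types that the sort could hold were read on the same arrays. The cDC1 markers were bright, with Xcr1 at 12.35 to 12.57 in the low and 12.6 to 12.72 in the high arrays, and 0 of 13 cDC1 genes passed the test. The fractions did not overlap in 5 of the 13, 2 higher and 3 lower, against 16.1% of all probe sets, 9.7% higher and 6.37% lower. Snx22 had the smallest p (-0.32, limma adjusted p = 0.0548), and Clec9a (-0.21, adjusted p = 0.104) and Cd8a (0.31, adjusted p = 0.0639) did not pass either. After quantile normalization Snx22 (-0.40, limma adjusted p = 0.0186) and Clec9a (-0.29, adjusted p = 0.0398) were called lower, and Cd8a was called higher without low replicate 3 or high replicate 1. Of 15 plasmacytoid genes 10 rose and 1 fell, against 5.28% and 2.96% of all probe sets. The rises included Siglech (1.81), Klk1 (1.52), Bst2 (0.79) and Ly6d (0.55). Without 1 array the rises ran from 7 (low replicate 1 or high replicate 2) to 10 (high replicate 1), with 1 fall each time. Siglech, Klk1 and Bst2 kept their calls in all 8 omissions and Ly6d in 6. Cd209d also rose, from 6.71, 7.42, 6.82 and 7.39 in the low to 8.94, 8.87, 8.44 and 9.4 in the high replicates. Its low replicates 1 and 3 were near the negative control medians of the low arrays, 6.72 to 6.81, so no size is given for its change. The fall was Ptprs (-0.52), named after its value was seen. The mean level of this list was 9.5 to 9.66 in the low and 10.11 to 10.49 in the high arrays.

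Within TMRM/MG-high, Tcf4 and several lists shared 1 order over the arrays, so that order was not particular to Tcf4 or to plasmacytoid genes. In replicates 3, 1, 2 and 4 Tcf4 stood at 11.39, 11.49, 11.63 and 11.71 and the plasmacytoid genes at 10.11, 10.22, 10.39 and 10.49. In that order the T cell genes read 8.44, 8.46, 8.57 and 8.73, the NK cell genes 8.52, 8.77, 9.19 and 9.38, and the cDC2 genes 9, 9.06, 9.23 and 9.57. In the low arrays replicate 3 was lowest in Tcf4 and in the T cell, NK cell and cDC2 lists, and replicate 1 was lowest in the plasmacytoid list. Irf4 was highest in replicate 4 of each fraction (9.56 low, 9.93 high), where the means of the cDC2 genes (9.42 and 9.57), the plasmacytoid genes (9.66 and 10.49) and the macrophage and monocyte genes (9.85 and 10.19) were also highest. These lists were set beside the factors after their values were seen, and their part in the differences of the factors was not tested.

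Lymphoid and myeloid lists differed in their counts of calls, where 5.28% of all probe sets were called higher and 2.96% lower. T cell genes fell in 6 of 7 (Cd3e -0.86, Cd3d -0.82, Cd3g -0.76, Lat -0.66), with mean levels of 8.72 to 9.4 in the low and 8.44 to 8.73 in the high arrays. Without 1 array the falls ran from 1 (high replicate 3) to 6 (low replicate 3), with 2 without low replicate 1 or high replicate 2 and 3 without low replicate 2. NK cell genes had 0 of 7 calls and a median difference of -0.70 (8.91 to 10.02 low, 8.52 to 9.38 high). Without low replicate 3 all 7 were called lower, and without high replicate 4 1 was. The smallest p was that of Nkg7 (-0.70, limma adjusted p = 0.072), while Ncr1 differed by -0.78 (adjusted p = 0.144). NK cells also use Id2 and Nfil3. Both factors had their higher means in TMRM/MG-high, where the NK levels ranged lower but overlapped those of the low arrays. Any link between them was not tested. Neutrophil genes had 1 fall of 8, Csf3r (-0.81, limma adjusted p = 0.00065), with mean levels of 9.42 to 10.47 low and 8.52 to 9.7 high, and 3 falls without low replicate 4. Macrophage and monocyte genes had 1 rise of 10, Ccr2 (0.51), with 9.63 to 9.85 low and 9.54 to 10.19 high. The Ccr2 call was kept without low replicate 3 or high replicate 1 and lost in the other 6 omissions, and C1qa (0.24) did not pass. B cell (7 measured) and erythroid genes (3) had 0 calls, with smallest-p members Vpreb3 (0.12) and Alas2 (-0.34), and cDC2 genes had 0 of 11 (Clec10a 0.39, Sirpa 0.09). Clec10a and Itgam were each called in 1 omission: the count was 1 higher without high replicate 3 and 1 lower without high replicate 4. Mean B cell levels were 9.01 to 9.44 low and 9.06 to 9.45 high, and erythroid levels 8.54 to 8.92 and 8.43 to 8.96. The mean signal of every measured gene of these lists lay above the negative control median of 6.8, except for 1 cDC2 gene, Mgl2.

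**Figure D4:**
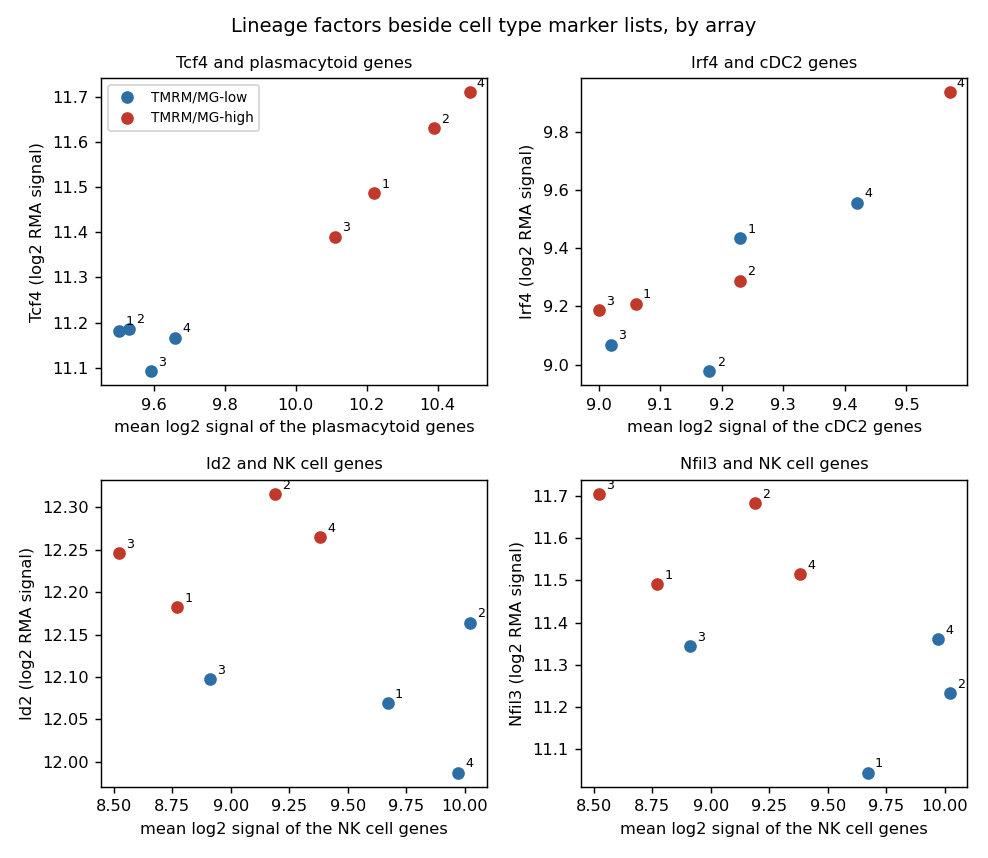
Log2 signal of a factor (vertical axis) against the mean log2 signal of a marker list (horizontal axis) on each array, for TMRM/MG-low (blue) and TMRM/MG-high (red), numbered by replicate. Among the red points Tcf4 takes the order of the plasmacytoid genes, which the NK cell and cDC2 lists share, as does the T cell list, which is not drawn. Irf4 is highest in replicate 4 of each fraction, as are the cDC2 and plasmacytoid lists and the macrophage list, which is not drawn. Id2 and Nfil3 are set against the NK cell genes, whose levels overlap between the fractions, and any link was not tested.

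Spike-in RNAs added in the laboratory were lower in TMRM/MG-high, with a mean over 8 probe sets of 8.88 to 9.43 against 9.79 to 10.23. With that mean as a covariate limma called 0 probe sets, and 1040 had an unadjusted p under 0.05. Tcf4 then differed by 0.41 (95% interval -0.1 to 0.91), Nfil3 by -0.01 (-0.49 to 0.47), Spib by 0.56 (0.03 to 1.09) and Zbtb46 by -0.66 (-1.26 to -0.06), each with a limma adjusted p of 1. Batf3 (-0.15), Bcl6 (-0.2) and Irf4 (-0.22) changed sign. The covariate separates the fractions, so spike-in level and fraction cannot be told apart.

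Across the 8 arrays, the genes most like each factor by Pearson correlation were as follows, as a description over arrays that share their fraction. For Tcf4 they were Slc25a15 (0.974), Usp53 (0.972) and Lrp8 (0.972), and for Nfil3 Eny2 (0.989), Ndufb7 (0.989) and Idh3g (0.988). Batf3 was nearest to Sf3a3 (0.999), Grina (0.989) and Tbce (0.989). Id2 was nearest to Mnat1 (0.99), Mif (0.984) and Tmem19 (0.981), and Bcl6 to Cklf (0.99), Hdac3 (0.983) and P2rx7 (0.98). Irf8 was nearest to Ccl1 (0.984), Slfn4 (0.968) and Zbtb34 (0.966), and Spib to Lifr (0.955), Nol6 (0.946) and Zfp369 (0.933). Irf4 was nearest to Rgl1 (0.957), St8sia6 (0.955) and Mmp12 (0.953), and Zbtb46 to Rdh5 (0.959), Itfg2 (0.956) and Nmnat3 (0.933). No factor had another of the 9 among its 3 nearest. The search covered every named probe set whose mean lay above the negative control median, on only 8 arrays. Correlations this high can arise by chance in such a search, and the absence of other members says little.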

How the data were processed

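The authors deposited log2 signals made with RMA in Affymetrix Expression Console 1.1, per the submitters' processing notes, from total RNA labelled with the Whole Transcript Plus kit, per the labels. RMA equalises the distributions of probe signals over arrays, which can take out a change common to most transcripts. The tested probe sets were not fully equalised, since normalizing them again moved the share of calls that were higher from 64.1% to 49.8%. That step also lowered the differences of Tcf4 (0.40 to 0.32) and Nfil3 (0.35 to 0.28). No genome build is named in the labels or headers. Of 28846 probe sets, 22206 were tested after control probe sets were left out. The number of arrays limits the precision.

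The 4 TMRM/MG-high and 4 TMRM/MG-low arrays were compared with limma 3.58.1 in R 4.3.3 (lmFit, eBayes, no block, two-sided), adjusted by Benjamini-Hochberg over all tested probe sets, after testing on simulated data. Gene names came from the platform annotation. Figures used matplotlib 3.10.9. Pairs of factors were compared by exact permutation, and their intervals use the pooled spread. The text names all members, the 3 nearest genes of each, up to 4 called genes of a list or the 1 with the smallest p, and defining markers. Other uncalled pathway factors, Itgam and Mgl2 were named after their values were seen. Members, lists and tests were chosen with earlier results of these data known. Alternatives were a replicate block, other normalizations, a filter on dim probe sets, other limma settings, other thresholds, a spike-in covariate and leaving out each array.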

Additional observations from a re-analysis of the deposited data

Results flagged for a closer look

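In 3 of 18 groups of 4 arrays, 1 array stood far from the others, where chance gives about 1 in 20. The groups share the same arrays, so they are not independent. Irf8 in TMRM/MG-low replicate 4 measured 12.41, below the next at 12.59. Without it the difference was -0.22 (limma adjusted p = 0.165). Batf3 in TMRM/MG-high replicate 1 measured 11.73, below the next at 11.96. Without it the difference was 0.26 (limma adjusted p = 0.115). Irf4 in TMRM/MG-high replicate 4 measured 9.93, above the next at 9.29, and without it the difference was -0.03 (limma adjusted p = 0.927). In each case the same-numbered array of the other fraction was extreme in the same direction. Irf8 was also lowest in high replicate 4 (12.31), Batf3 lowest in low replicate 1 (11.53) and Irf4 highest in low replicate 4 (9.56). The causes of these deviations were not tested.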

How the results depend on the processing

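Among 135 recomputed differences of single factors, 113 kept direction and side of the threshold, 14 lost a call with their sign kept and 3 gained one. Another 5 changed sign, among them Nfil3, which thereby also lost its call. Only Tcf4 and Nfil3 had a call to lose, so most of the 113 are factors without one. Tcf4 was called in 3 of 8 omissions and 6 of 7 other settings, and Nfil3 in 2 of 8 and 4 of 7. The sign changes were Irf4 without TMRM/MG-high replicate 4 (-0.03, in a range of -0.03 to 0.24 over the omissions of 1 array) and, with the spike-in covariate, Batf3 (-0.15), Bcl6 (-0.2), Irf4 (-0.22) and Nfil3 (-0.01). The main count was 2 factors higher and 0 lower. It was 1 after quantile normalization (Tcf4), 1 after median centring (Tcf4), 4 with an intensity trend and robust fit (Tcf4, Nfil3, Bcl6 and Id2), 0 with the spike-in covariate and 0 at a threshold of 0.01, and leaving out 1 array gave 0 to 2. The causes of these changes were not tested.

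Over all probe sets, 1173 were higher and 658 lower. The intensity trend with a robust fit, changed together, gave 1950 higher, the spike-in covariate 0 and 0 (1040 at an unadjusted p under 0.05), and leaving out 1 array 183 to 1680 higher and 218 to 793 lower. Calls that were higher made up 64.1%, 49.8% after quantile normalization.

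Same-numbered arrays did not deviate together in every pair over all probe sets (r = 0.015 to 0.271). Of the arrays, 1 of 4 high and 2 of 4 low correlated best with their own number. The main fit took no pairs, since no label says what a number marks, but this check cannot exclude pairing. Irf8 was lowest in replicate 4 of both fractions, Batf3, Nfil3 and Bcl6 in replicate 1, and Tcf4 and Spib in replicate 3. Id2, Irf4 and Zbtb46 were lowest in different numbers. Statements on overlap take the arrays as unpaired. The replicate block gave 1225 higher and 650 lower, and of the factors 3 higher and 0 lower, with Bcl6 added (0.35, limma adjusted p = 0.0419). No pair of factors passed with a replicate block or without 1 array, where the smallest exact permutation p is 0.125 and 0.0571.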
